A study of Mus musculus with 3 samples.

Results

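The cytosolic ribosomal protein genes encode the protein part of the ribosomes that translate cytosolic messages. Their RNA levels were compared between Hopx-null mouse embryoid bodies grown with a Wnt inhibitor and Hopx-heterozygous embryoid bodies. The rule for choosing them uses gene names. A probe was taken if its RefSeq accession belongs to a symbol made of Rpl or Rps with a number and an optional letter a, x or y, or to Rpsa, Rplp0, Rplp1 or Rplp2, and pseudogenes were left out. The rule names 76 protein-coding genes in the reference, and 75 of them had a probe, 45 of the large subunit and 30 of the small one, out of 21153 genes named on the array. Rpl37 was not analysed here. The 75 genes were read by 161 probes on 170 spots, and all 75 passed the filter on dim probes.

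Stem cells left to differentiate in floating clumps form embryoid bodies. Both groups came from stem cell lines derived from blastocysts, started on STO feeder cells with a MEK1 inhibitor and later kept on inactivated mouse embryonic fibroblasts, and both were taken at day 8 of a cardiac differentiation with VEGF, bFGF and FGF10. The first group was Hopx-/- with 12.5 µM XAV939, a tankyrase inhibitor that lowers Wnt signalling, and the second was Hopx+/- without it. The control therefore carries 1 disrupted Hopx allele itself, and the part of the genotype and the part of the inhibitor cannot be told apart in this design. Each of 3 two-colour Agilent arrays set the RNA of both groups side by side. The labels call the 3 arrays biological replicates, and the sources used here do not say how many lines or separate cultures stand behind them, so the p-values measure only the spread between these samples.

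Each value below is the log2 ratio of null with inhibitor over heterozygous, after background correction and loess normalization within the array, so a negative value is a lower level in the null cultures. A gene was called higher or lower where limma's moderated test of the mean ratio against 0 gave a Benjamini-Hochberg adjusted p below 0.05 over all 14710 tested genes. Per the labels, Cy5 carried null RNA throughout. Over 43020 spots, however, the scanner's raw ratios of array 3 ran against those of arrays 1 and 2 (r = -0.79 and -0.89), while arrays 1 and 2 ran together (r = 0.82). The sign of replicate 3 was turned, as in the authors' processed values, so the direction is likely rather than settled, and every sign below would turn if it were the opposite one. Hopx itself gave -2.65, -2.75 and -2.73 in replicates 1 to 3, a 6.54-fold fall (mean -2.71 ± 0.05, adjusted p = 2.03e-07 by limma). The position of the Hopx probe relative to the deletion is unknown here. Errors are SDs over 3 arrays throughout.

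Ribosomal proteins are made in the cytoplasm. Most are imported into the nucleolus and assembled there with ribosomal RNA into the large or the small subunit. The messages are among the most abundant of a growing cell. They begin with a run of pyrimidines, the terminal oligopyrimidine tract, through which mTOR and the RNA-binding protein LARP1 adjust their translation as a group.

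Of the 75 ribosomal protein genes, 26 were called lower in the null cultures with inhibitor, 13 of each subunit, and Rpl11 alone was called higher. The other 48 did not pass the test. Of all 14710 tested genes, 33% were called lower and 31.5% higher, so the share of ribosomal protein genes called lower was near the background. The differences were small: no member reached 1 on the log2 scale in either direction, against 17.3% of all tested genes. The median ratio over the members was -0.29 (-0.23 for the large and -0.33 for the small subunit), beside -0.011 over all tested genes, but it was 0.064 with median centring in place of loess, where all tested genes had a median of 0.096 and 0 members were called lower by limma (0 also at an unadjusted p below 0.05). The members' median therefore lay below 0 with loess and above 0 with median centring, and below that of all tested genes with both. Over all tested genes median centring left medians of 0.23, 0.34 and -0.25 in replicates 1 to 3. Those of the members were 0.21, 0.39 and -0.23, near all tested genes on each array. Median centring called 20.7% of all tested genes higher and 13.8% lower, so 60.0% of its calls were higher, against 48.9% with loess. In bulk RNA, fewer cells of a type and less RNA per cell cannot be told apart.

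The 3 replicates did not behave alike. The members' median was -0.29 in replicate 1, -0.32 in replicate 2 and -0.063 in replicate 3. In the small subunit the medians were -0.39, -0.52 and -0.060, and in the large subunit -0.14, -0.17 and -0.087. Replicates 1 and 2 were thus low and replicate 3 near 0. Only 39 of the 75 members had one sign on all 3 arrays (31 lower and 8 higher), against 77.9% of all tested genes. In 25 members replicates 1 and 2 had one sign and replicate 3 the other, against 13% of all tested genes, and 20 of these were low in replicates 1 and 2 and high in replicate 3, against 6.13% of all. Across the members the ratios of replicates 1 and 2 correlated at 0.90, while those of replicate 3 correlated at -0.049 and -0.15 with them. Over all tested genes the same correlations were 0.97, 0.90 and 0.92 (genes are not independent replicates). Replicates 2 and 3 lay on one slide and replicate 1 on another, and on the slide with 2 arrays 10 members were called lower and 1 higher, against 28.2% and 26.4% of all tested genes. The slide with 1 array allows no test of its own.

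**Figure D1:**
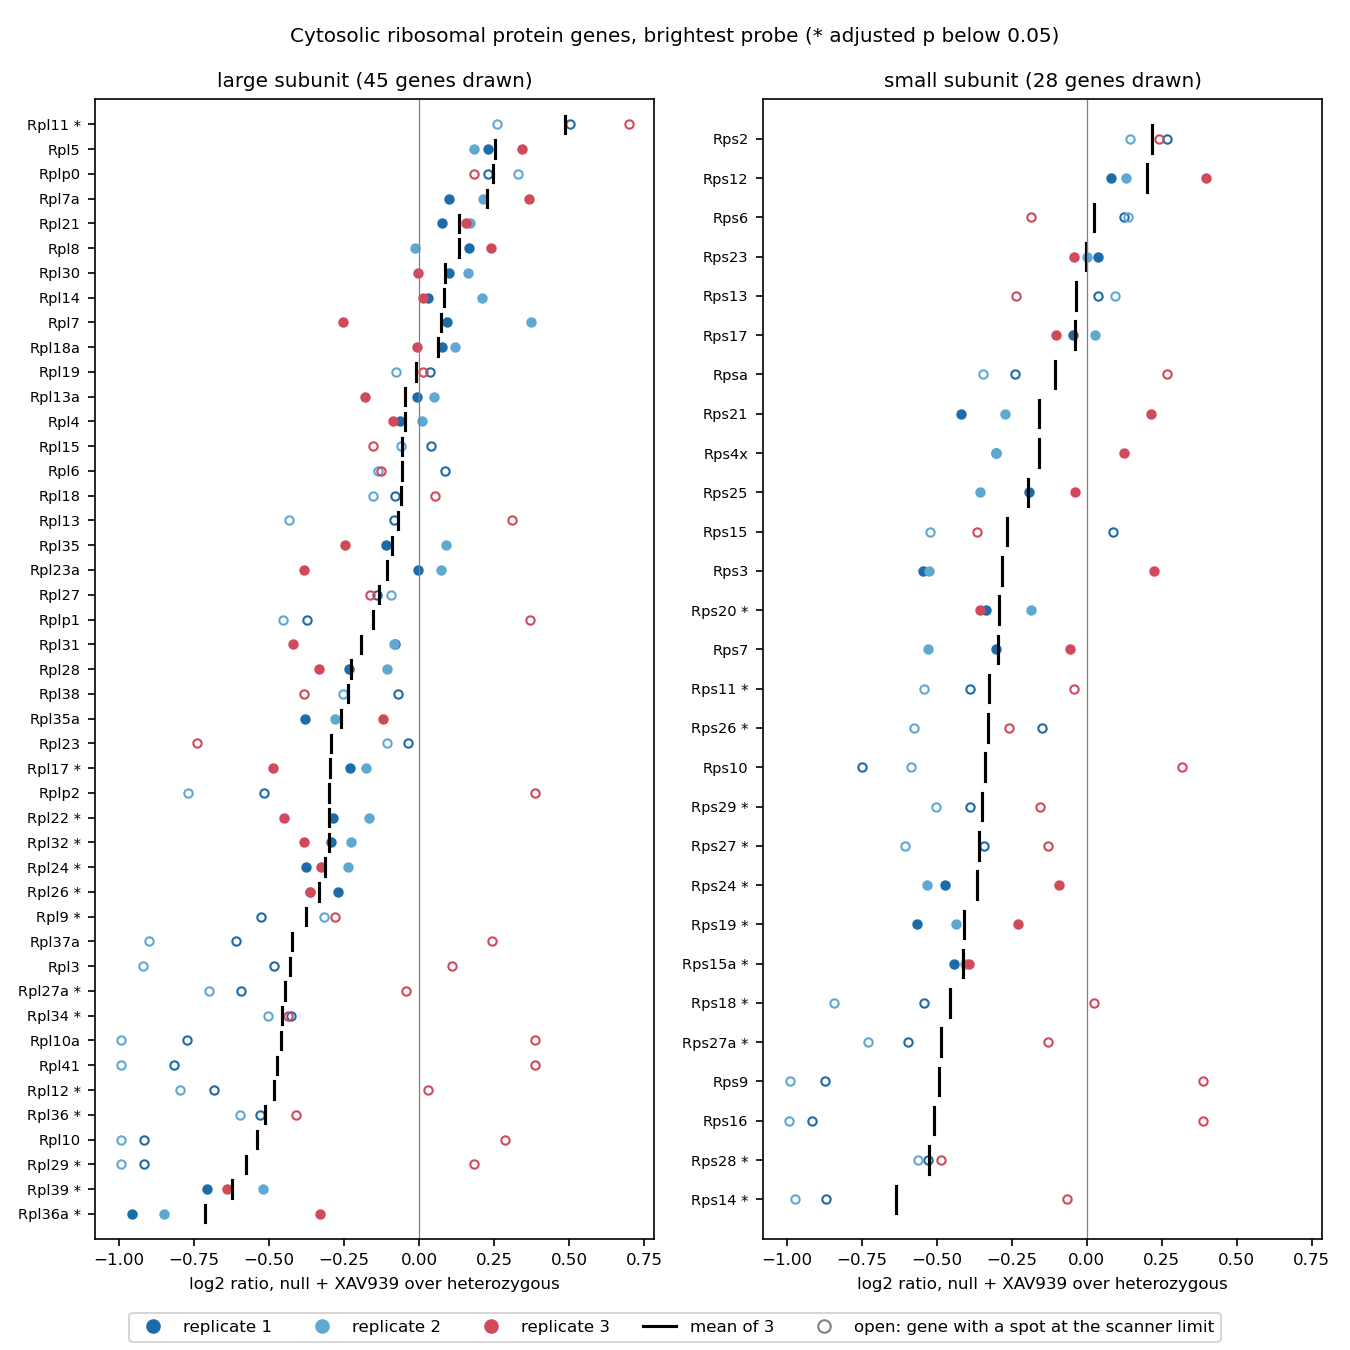
Log2 ratio of null with XAV939 over heterozygous for the brightest probe of each of 73 of the 75 ribosomal protein genes, large subunit left and small subunit right, with 1 point per replicate and a black bar at the mean of 3. Open points mark genes with a spot at the scanner limit on any array, and a star marks an adjusted p below 0.05 by limma; among the open points replicate 3 often lies to the right of replicates 1 and 2, and the members' median is -0.29 with this loess normalization and 0.064 with median centring.

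These messages were read near the top of the scanner's range. The brightest probe was in the brightest 5% of tested probes for 69 of the 75 members. Feature Extraction, the scanner software, marked 0, 5 and 9 of the 170 member spots as saturated in Cy3 on arrays 1, 2 and 3, and 9, 21 and 15 in Cy5. Its marks left out spots whose median signal stood at the limit of 65529, so a spot was counted as at the limit if it was marked or reached 99.9% of that value. By this count 41 of the 75 genes had their brightest probe at the limit in at least 1 channel of 1 array. In the null RNA 38, 59 and 9 member probes were at the limit in replicates 1, 2 and 3, and in the heterozygous RNA 3, 5 and 38. The limit was thus reached mostly in Cy5, which held the null RNA in replicates 1 and 2 and the heterozygous RNA in the turned replicate 3.

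A spot at the limit in both channels has equal signals whatever the true levels. There were 3, 5 and 6 such member probes in replicates 1, 2 and 3, and loess turned their equal signals into -0.92 in replicate 1, -0.99 in replicate 2 and 0.39 in replicate 3. Rps16, a small subunit protein, was at the limit in both channels on all 3 arrays and had these 3 values. Rpl10, which joins the large subunit late in its maturation, had -0.92, -0.99 and 0.29, with the heterozygous RNA at the limit on 3 arrays and the null RNA on 2 (mean -0.54 ± 0.72, adjusted p = 0.0582 by limma). Rpl29 had -0.92, -0.99 and 0.18 with the same marks, and was called lower (mean -0.58 ± 0.66, adjusted p = 0.0353). In these 3 genes replicates 1 and 2 therefore carry the values that the normalization gave to spots at the limit in both channels. The null RNA was at the limit on every array also for Rpl10a, Rpl41, Rplp2 and Rps9, where a negative mean is not a measured difference and gives no fold. These 4 were not called. The other probes of Rpl10, also at the limit on some arrays, were called lower at -0.34 and -0.31. That of Rpl29 gave -0.10 and was not called. Of the other probes of Rps16, one was called lower at -0.38 and one gave -0.24 and was not called. Rpl10a had another probe called lower at -0.29. These probes of Rps16 and Rpl10a were also at the limit on at least 1 array.

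The 34 members with no spot at the limit are free of this bound. Their medians were -0.21, -0.14 and -0.11 in replicates 1, 2 and 3, and the median of their means was -0.18. By subunit, the 22 of the large subunit had -0.072, -0.0017 and -0.25, with replicate 3 the lowest, and the 12 of the small subunit -0.32, -0.33 and -0.051. Of these 34, 11 were called lower and the other 23 did not pass (limma, loess). The 41 members with a spot at the limit had medians of -0.43, -0.56 and 0.013 and a median mean of -0.35. Of these 41, 15 were called lower and 1 higher. Both counts stand beside 33% of all tested genes called lower and 31.5% higher. Replicate 3 opposed replicates 1 and 2 in 6 of the 34 and in 19 of the 41. Across the 34, replicate 3 correlated at 0.47 and 0.34 with replicates 1 and 2. The part that the limit has in the members' lower median was not tested.

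Among the large subunit genes, Rpl36a had the lowest mean. It encodes a protein near the exit site for transfer RNA. Its ratios were -0.96, -0.85 and -0.33 in replicates 1 to 3, all below 0, and it fell 1.64-fold (mean -0.71 ± 0.33, adjusted p = 0.00147 by limma). Its signals, 18213, 19182 and 15220 in the null RNA and 19084, 18070 and 25595 in the heterozygous RNA, were far from the limit. Of its other probes, one gave a mean of -0.70 and was called lower, and one gave -0.18 and was not called. Rpl39, a small protein lining the tunnel through which the new chain leaves, gave -0.71, -0.52 and -0.64 and fell 1.54-fold (mean -0.62 ± 0.09, adjusted p = 0.000598 by limma). All 3 of its probes were called lower, with means of -0.62, -0.71 and -0.33, and none touched the limit. These genes were also called lower without any one replicate, and their means stayed below 0 with median centring (-0.38 for Rpl36a and -0.27 for Rpl39), where neither was called.

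Other large subunit genes described here had smaller negative means. Rpl36 gave -0.53, -0.60 and -0.41 (mean -0.51 ± 0.10, adjusted p = 0.00186 by limma), and all 3 of its probes were called lower. Rpl34 gave -0.43, -0.51 and -0.44 (mean -0.46 ± 0.04, adjusted p = 0.00299), and both of its probes were called lower. Each had its brightest probe at the limit in the null RNA of replicate 2 and in the heterozygous RNA of replicate 3. Rpl27a gave -0.59, -0.70 and -0.05 and was called lower (mean -0.45 ± 0.35, adjusted p = 0.0186). Its null RNA was at the limit in replicates 1 and 2 and its heterozygous RNA in replicate 3, so no array measured both. A second probe, also at the limit on some arrays, was called lower at -0.31. Another, which never touched the limit, gave 0.14 ± 0.13 and was not called. Rpl22, which has a paralog in Rpl22l1, gave -0.29, -0.17 and -0.45 (mean -0.30 ± 0.14, adjusted p = 0.0311), with no spot at the limit. Rpl38, which mice need for normal axial patterning, gave -0.07, -0.25 and -0.38 and did not pass (mean -0.24 ± 0.16, adjusted p = 0.0791).

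The proteins around the exit tunnel and its rim, Rpl4, Rpl17, Rpl19, Rpl22, Rpl23a, Rpl31, Rpl35 and Rpl39, had means from -0.62 to -0.01. Of these 8, Rpl17, Rpl22 and Rpl39 were called lower and 5 were not called, beside 33% of all tested genes called lower. The stalk that recruits elongation factors is built from Rplp0, Rplp1, Rplp2 and Rpl12, and its genes did not move as one. Rplp0, the stalk base, gave 0.23, 0.33 and 0.18, all above 0, and missed the threshold (mean 0.25 ± 0.07, adjusted p = 0.0542 by limma), with the null RNA at the limit in replicates 1 and 2. Its other 2 probes were called higher, at 0.34 ± 0.22 and, with no spot at the limit, 0.47 ± 0.20. Rplp1 gave -0.37, -0.46 and 0.37 (mean -0.15 ± 0.45, adjusted p = 0.423), and Rplp2 gave -0.52, -0.77 and 0.39 (mean -0.30 ± 0.61, adjusted p = 0.206). In both, replicate 3 lay opposite to replicates 1 and 2. Rpl12 gave -0.68, -0.80 and 0.03 and was called lower (mean -0.48 ± 0.45, adjusted p = 0.0238). Its null RNA was at the limit in replicates 1 and 2 and its heterozygous RNA in replicate 3, so no array measured both. The second probe of Rpl12, which never touched the limit, gave -0.15 and was not called.

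Rpl5 and Rpl11 bind 5S RNA together and, outside the ribosome, the p53 regulator Mdm2. Rpl5 gave 0.23, 0.18 and 0.34 and missed the threshold (mean 0.25 ± 0.08, adjusted p = 0.0511 by limma). Rpl11 gave 0.50, 0.26 and 0.70 and was the only member called higher (mean 0.49 ± 0.22, adjusted p = 0.00496 by limma). Its brightest probe was at the limit in the null RNA on all 3 arrays and never in the heterozygous RNA. The 1.40-fold ratio of this probe after loess is a lower bound only if that normalization holds at the limit. This call did not hold across its probes, as given below.

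In the small subunit, Rps15a gave -0.44, -0.41 and -0.39 with no spot of its brightest probe at the limit (mean -0.41 ± 0.03, adjusted p = 0.00496 by limma). The 3 replicates were alike. Rps19, the gene most often mutated in Diamond-Blackfan anaemia, gave -0.57, -0.44 and -0.23 (mean -0.41 ± 0.17, adjusted p = 0.00881 by limma), again with no spot at the limit. Of the small subunit genes with spots at the limit, Rps28, which lies near the exit of the messenger RNA, gave -0.53, -0.56 and -0.49 and was called lower (mean -0.53 ± 0.04, adjusted p = 0.00133 by limma). Its null RNA was at the limit in replicate 2, so the ratio of that array is not a full measurement. Rps14, a platform protein at the same site, gave -0.87, -0.97 and -0.067 and was also called lower (mean -0.64 ± 0.50, adjusted p = 0.00912). Its only tested probe had the null RNA at the limit in replicates 1 and 2 and the heterozygous RNA in replicate 3, so no array measured both and no fold is given. Rps27a, made as a fusion with ubiquitin, gave -0.60, -0.73 and -0.13 and was called lower (mean -0.49 ± 0.32, adjusted p = 0.00997), with the limit reached in the same places. A probe of Rps27a never at the limit gave -0.36 ± 0.32 and was called lower too.

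Rps2, Rps3, Rps9, Rps15 and Rps23, which line the messenger RNA channel or the decoding centre, held no call in either direction by their brightest probes, with means from -0.49 to 0.22, and the lowest adjusted p, that of Rps2, was 0.0805 by limma. Of their other probes, one of Rps15 never at the limit was called lower (-0.44 ± 0.27) and one of Rps2 higher, as given below. Rps6, the target of S6 kinase downstream of mTOR, gave 0.12, 0.14 and -0.18 (mean 0.03 ± 0.18, adjusted p = 0.855 by limma). Rps25, which some viral and cellular messages need for internal initiation, gave -0.19, -0.36 and -0.04 (mean -0.20 ± 0.16, adjusted p = 0.135), while its other probe was called higher (0.65 ± 0.27, adjusted p = 0.00177 over the probes). Rpsa, also known as the laminin receptor, gave -0.24, -0.34 and 0.27 (mean -0.11 ± 0.33, adjusted p = 0.512), and of its other 3 probes one was called higher (0.59 ± 0.41) and the rest were not called. In each of these last 3 genes the replicates of the brightest probe spanned more than the size of the mean.

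The members lie on 19 chromosomes. The 4 on the X chromosome, Rpl10, Rpl36a, Rpl39 and Rps4x, had a median of -0.58, beside -0.063 over the 535 tested genes of that chromosome. Rpl36a and Rpl39 were called lower, as were 214 of the 535, so 2 of 4 is no more than a description. Rpl10, whose value enters that median, was bound by the limit, and Rps4x gave -0.30, -0.30 and 0.12.

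The start-site windows of 8 members with a single RefSeq promoter entry are shown because a pyrimidine run at the start is the mark of this gene family. They hold 15 bases on each side of the annotated start (GRCm38.p6), and capitals mark the longest run of C and T. The marked run spans the annotated start, in the middle of the window, only in Rps28 and Rps6. In the other windows the marked run lies to one side. Shorter runs were not marked, and in Rps15a and Rpl39 such an unmarked run crosses the start. Rpl36a, Rpl39, Rps28 and Rps15a were called lower, Rps6, Rplp0 and Rpl5 were not called, and Rpl11 was called higher.
Rpl36a (chrX:134585639-134585668, plus strand): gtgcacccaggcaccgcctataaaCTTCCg
Rpl39 (chrX:37085208-37085237, minus strand): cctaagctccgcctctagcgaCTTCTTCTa
Rps28 (chr17:33824548-33824577, minus strand): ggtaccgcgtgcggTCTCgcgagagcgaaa
Rps15a (chr7:118116133-118116162, minus strand): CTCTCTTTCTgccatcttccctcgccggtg
Rps6 (chr4:86857353-86857382, minus strand): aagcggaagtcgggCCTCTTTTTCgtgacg
Rplp0 (chr5:115559452-115559481, plus strand): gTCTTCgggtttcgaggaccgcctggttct
Rpl5 (chr5:107900513-107900542, plus strand): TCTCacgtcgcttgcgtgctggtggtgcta
Rpl11 (chr4:136053379-136053408, minus strand): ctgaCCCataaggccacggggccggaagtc

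The promoter table held entries for 56 of the 76 genes of the rule, with 66 promoters in all. A run of at least 8 pyrimidines lay in the 30-base window of 26 of these 66 promoters (39.4%), against 12% of all 32851 promoters in the table. In the windows above, the marked run is 10 bases long in Rps6 and Rps15a, 8 in Rpl39 and 5 or fewer in the other 5. The letters CCGGAAG, searched on both strands of the 300 bases from 250 before to 50 after the start, were in 24 of the 66 (36.4%), against 8.86% of all. The 25 members on the array with a run of at least 8 had a median ratio of -0.24 and the 30 without one -0.29, so the medians lay close together. A match is a string of letters and no evidence of a bound factor.

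Different probes of a gene disagreed in some members. Of the 160 tested member probes, 57 were called lower, 20 higher and 83 neither in a second limma fit over 24384 probes, in which 31.4% of all probes were called lower and 28.7% higher. Several probes were tested in 50 of the 75 members. In 17 genes at least 1 probe was called higher. In 10 genes the probe means spanned 1 or more on the log2 scale. No counts of disagreeing probes over all genes are given, so those here and below describe the members only. Ribosomal protein genes have many near-identical pseudogene copies, and the probe sequences were not used here, so which transcripts a probe reads besides its gene is unknown and these genes are uncertain.

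In 5 genes the probes were called in opposite directions, and 4 of them are described. For Rpl11 the 3 probes gave means of 0.49 ± 0.22, -1.05 ± 0.20 and 1.17 ± 0.21, and only the first touched the limit. The opposite calls of the other 2 were thus made on signals below it. For Rpl17, 6 probes gave means from -0.38 to -0.30, all called lower, and the seventh gave 0.90 ± 0.19, with none at the limit. Rps15a had -0.41, -0.45 and 0.73, and Rps27a had -0.49, -0.36 and 0.73. For these last 2 genes the probe called higher was well above background in the heterozygous RNA on only 2 of the 3 arrays.

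In 5 further genes, all but Rps6 named after their values were seen, the probes spanned 1 or more with no opposite calls. The 3 probes of Rps6 gave 0.025, 0.10 and 1.94 ± 0.24, and only the last was called (adjusted p = 3.07e-06 by limma over the probes). The probes of Rpl30 gave 0.087, 0.015 and 1.57, and those of Rpl31 gave -0.19 and 0.84. The second probe of Rps13 was at the limit in the null RNA on all 3 arrays and never in the heterozygous RNA. Its ratio after loess, 4.01-fold higher, is a lower bound only if that normalization holds at the limit. The brightest probe of Rps13 gave -0.035. The second probe of Rps2, at the limit in the same places, was 3.41-fold higher with the same reservation, while the brightest gave 0.22. In each of the 5 genes 1 probe was called higher and the others were not called.

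**Figure D2:**
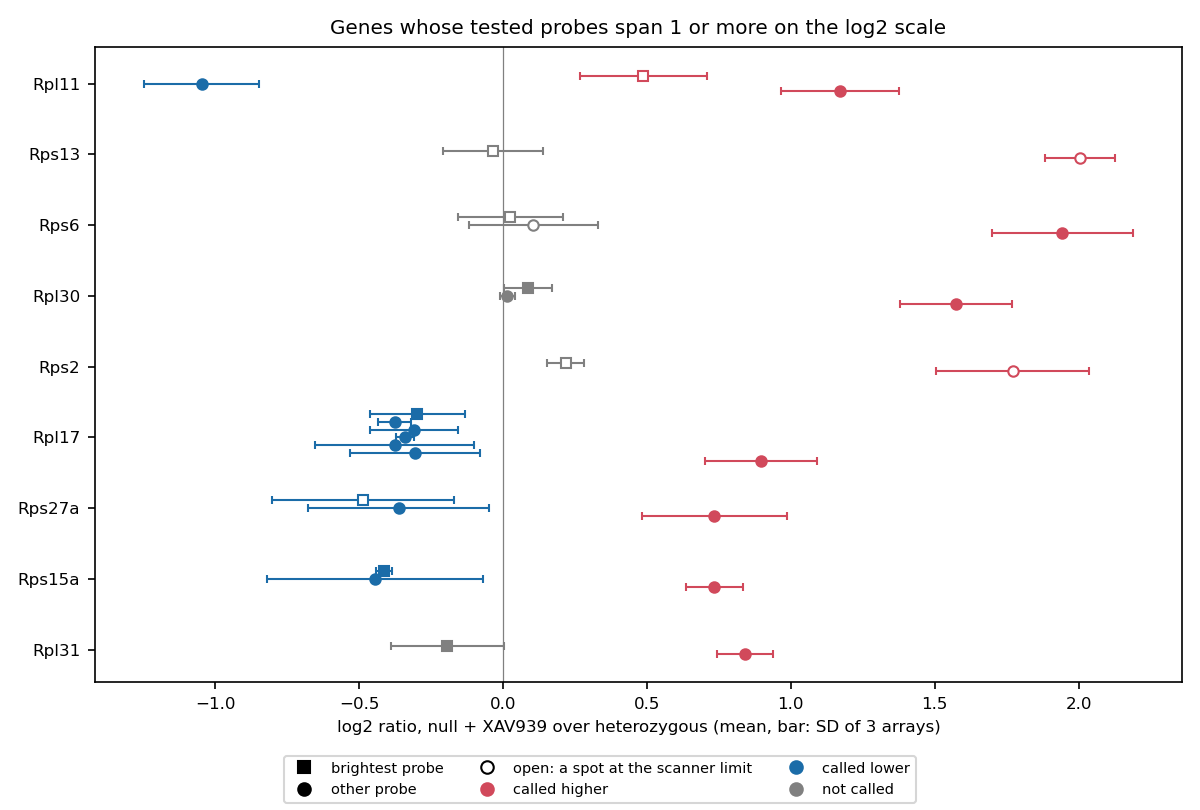
Mean log2 ratio of null with XAV939 over heterozygous for each tested probe of 9 of the 10 members whose probes span 1 or more, with bars of 1 SD over 3 arrays, squares for the brightest probe and open symbols for probes with a spot at the scanner limit. In Rps6 one probe stands at 1.94 and the other 2 near 0, and in Rpl17 6 probes lie near -0.3 and 1 at 0.90.

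The number of members called depended on how the ratios were made. With 18 other settings it ranged from 0 to 44 for lower and from 0 to 9 for higher. It was 44 lower and 2 higher without replicate 3 (36.3% and 35.9% of all tested genes), 10 and 1 without replicate 1, and 6 and 1 without replicate 2 (25.2% and 23.8%). Of these lower calls 25, 9 and 6 were among the 26. Without replicate 3 the members were thus called lower in a larger share than all tested genes, and without either other replicate in a smaller one. With the authors' processed values 14 members were called lower and 2 higher (25.7% and 23.3% of all), all 14 among the 26, and with Feature Extraction's own log ratio 11 and 3 (31.4% and 32.8%). With the mean over a gene's probes 27 were called lower and 9 higher (33.5% and 31.9% of all). With local backgrounds kept where they were marked as outliers 8 were lower and 1 higher (15.4% and 18.1%), and with no filter 26 and 3 (23% and 22.5%). With dye orientation as a fixed term, added after the data were seen, 41 were lower and 6 higher (38.9% and 36.2%). With each gene taken from its brightest probe never at the limit, a setting chosen after the data were seen, 53 members could be tested, 20 were called lower and 3 higher, against 33.2% and 31.7% of all tested genes, and the median was -0.18. Median centring gave 0 lower by limma with either choice of probe (13.9% and 20.9% of all called lower and higher with probes never at the limit), 0 at an unadjusted p below 0.05 with the brightest probe and 1 with the brightest probe never at the limit.

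Rpl36a, Rpl39 and Rpl36 were called lower in 15 of the 18 settings, Rpl34 and Rps28 in 14 of the 16 in which their probe could be tested, and Rps15a in 14 of 18. The settings that lost Rpl36a, Rpl39 and Rpl36 were median centring, alone and with probes never at the limit, and replicate 3 used as labelled. Rps14 was called lower in 9 of 16 and Rpl29 in 8 of 16. Rpl11 was called higher in 14 of 18 and lower in 1, with its brightest probe never at the limit.

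**Figure D3:**
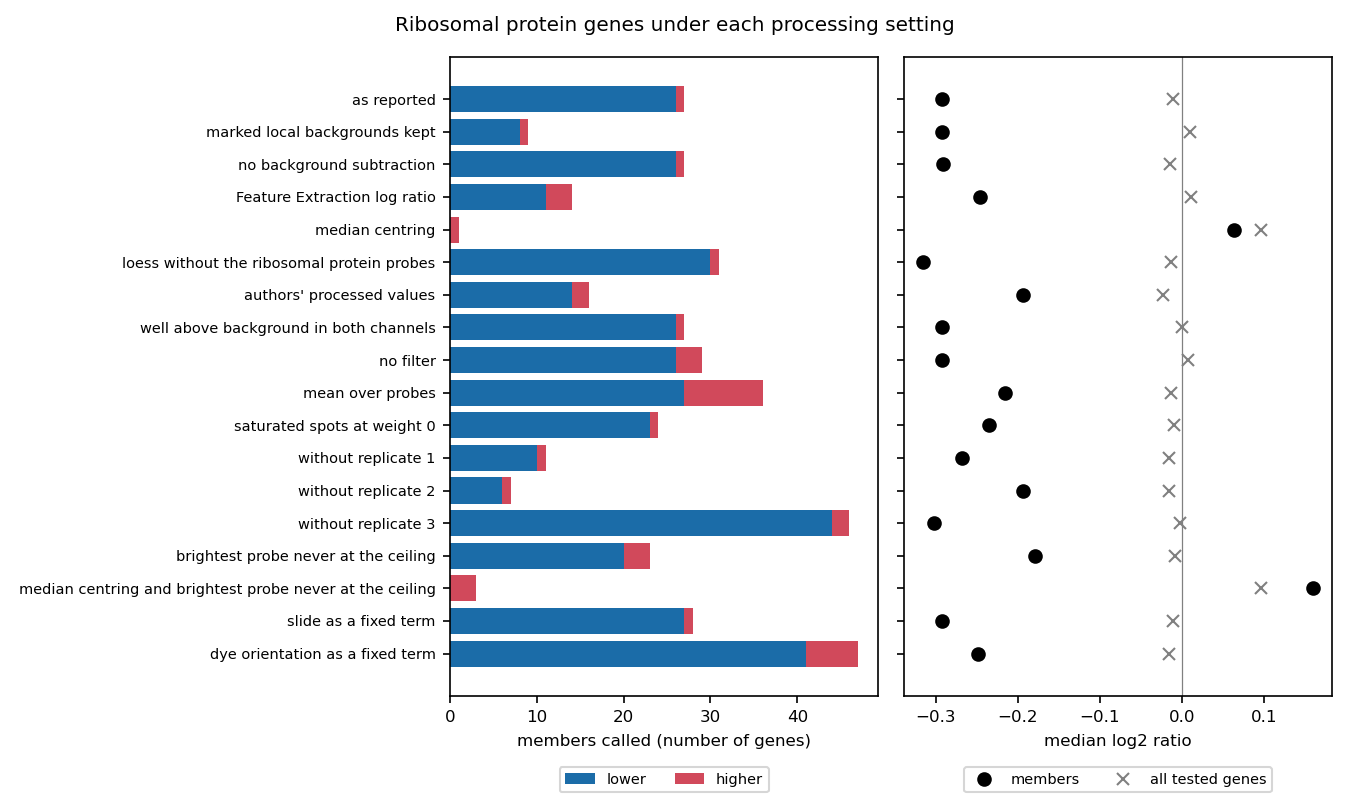
Ribosomal protein genes called lower and higher by limma (left, stacked number of genes) and the median log2 ratio of the members and of all tested genes (right) as reported and under 17 other settings; replicate 3 as labelled, where 0 were called, is not drawn. The members' median lies below that of all genes in every setting drawn except median centring with probes never at the limit, where it is 0.16, and it lies below 0 except under both forms of median centring.

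The other genes of ribosome production and translation were described from lists, with all values by loess unless given otherwise. Each count stands beside 31.5% of all tested genes called higher and 33% lower with loess, and 20.7% and 13.8% with median centring. Ribosome biogenesis factors, which build the subunits in the nucleolus, were mostly higher: 75 of 83 were called higher and 0 lower (0 at an unadjusted p below 0.05 by limma), with a median of 0.86. With median centring 66 were called higher and 0 lower. The largest rises were those of Ddx21, a nucleolar helicase, at 2.13, 2.54 and 2.21 (mean 2.30 ± 0.22, adjusted p = 7.44e-07 by limma), of Pes1, which matures the large subunit, at 2.11, 2.40 and 1.49 (mean 2.00 ± 0.47), and of Heatr1, at 2.01, 2.18 and 1.78 (mean 1.99 ± 0.20). All of these replicates lay above 1, beyond the range of any ribosomal protein gene's mean.

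Of 11 tested genes of RNA polymerase I, which transcribes ribosomal RNA, 8 were called higher and 1 lower (median 0.59, and 6 and 0 with median centring). Polr1b gave a mean of 1.67 ± 0.27, Polr1e 1.63 ± 0.23 and Taf1c 1.18 ± 0.19, while Polr1d, a subunit shared with RNA polymerase III, fell (mean -0.50 ± 0.14, adjusted p = 0.00268 by limma). Of 46 translation factors 24 were called higher and 3 lower (median 0.31, and 21 and 0 with median centring). Eif3b rose by 1.31 ± 0.22, Eif4g2 by 1.07 ± 0.30 and Eif2b3 by 0.98 ± 0.15. The 3 called lower were the helicase Eif4a2 (-0.76, -0.74 and -1.51), the elongation factor Eef1a1 (-0.27 ± 0.04) and Tpt1. The messages of Tpt1 and Eef1a1 carry a terminal oligopyrimidine tract too. The other genes of this list were not sorted by such a tract, and its relation to the ratios was not tested. The ratios of Tpt1 were -0.92, -0.99 and -0.082, with the heterozygous RNA at the limit on all 3 arrays and the null RNA on 2, so the first 2 values are those of spots at the limit in both channels and show no fall.

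Mitochondrial ribosomal proteins, which form a separate ribosome, had 43 of 77 called higher and 4 lower, with a median of 0.32 (31 and 0 with median centring, with 2 lower at an unadjusted p below 0.05). Mrpl20 rose by 1.34 ± 0.18, Mrps35 by 1.09 ± 0.30 and Mrps12 by 1.04 ± 0.17. Mrpl14 fell by 0.91 ± 0.24, Mrps6 by 0.87 ± 0.34 and Mrpl24 by 0.38 ± 0.04. Of 20 tested genes of mTOR, LARP1 and MYC control, Rps6 among them, 11 were called higher and 2 lower (median 0.35, and 7 and 0 with median centring). Mybbp1a rose by 1.02 ± 0.26, Mlst8 by 0.70 ± 0.08 and Mycn by 0.64 ± 0.36, and the falls were those of Larp4b (-0.34 ± 0.06) and Tsc1 (-0.27 ± 0.03). Larp1, named after its values were seen, gave 0.65, 0.85 and -0.084 and was called higher (mean 0.47 ± 0.49, adjusted p = 0.034 by limma).

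Paralogs of ribosomal proteins and ribosomal proteins outside the name rule had 4 of 11 tested genes called higher and 0 lower (0 at an unadjusted p below 0.05), with a median of 0.040. The share called higher was near the 31.5% of all tested genes. The paralogs Rpl10l (0.43, 1.01 and 1.05), Rpl39l (0.47, 0.60 and 0.44), Rpl7l1 (0.25, 0.47 and 0.79) and Rps4l (0.18, 0.34 and 0.65) were called higher, all with 3 replicates above 0. Rpl39 and its paralog Rpl39l were thus called in opposite directions, with means of -0.62 and 0.51. The difference between the 2 genes was not tested. Rpl36al gave a mean of 0.24 ± 0.27, Rps27l 0.040 ± 0.23, Rack1 -0.10 ± 0.20, Rpl22l1 -0.17 ± 0.10 and Rps3a1 -0.23 ± 0.14, and none of these 5 passed. Fau, at the limit in both channels on all 3 arrays, had -0.92, -0.99 and 0.39, the values of Rps16.

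**Figure D4:**
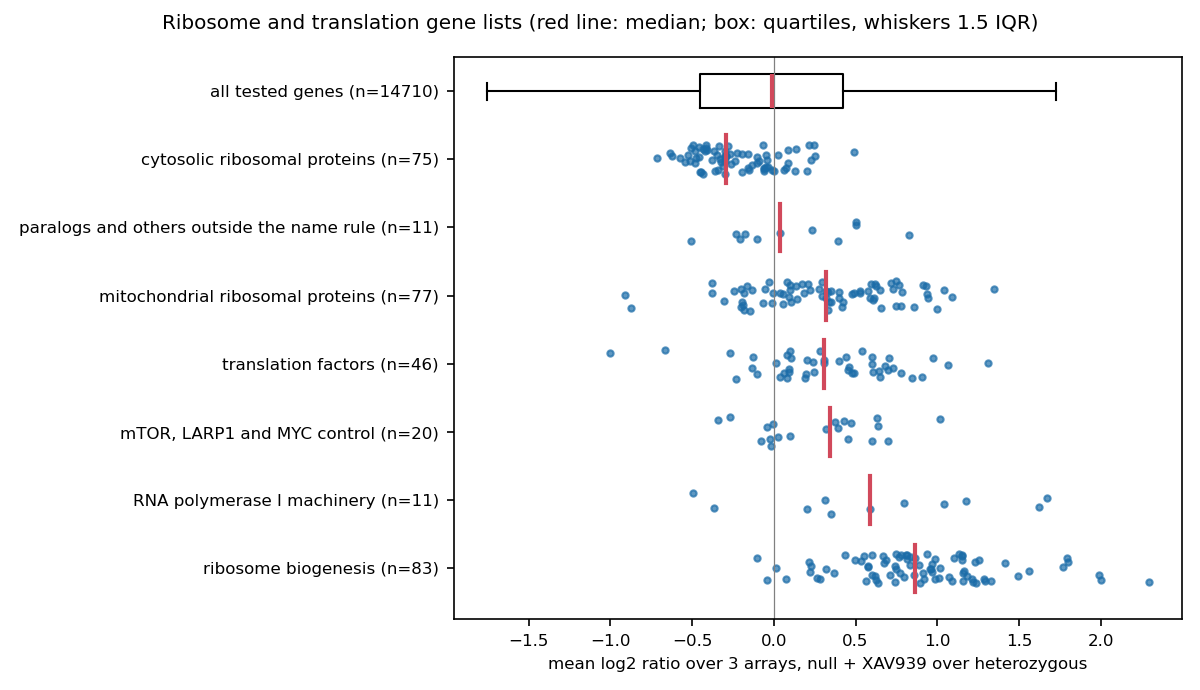
Mean log2 ratio over 3 arrays of null with XAV939 over heterozygous, by loess, for each tested gene of 7 lists (points, scattered vertically by chance) and for all 14710 tested genes (box of quartiles, whiskers of 1.5 interquartile ranges), with a red line at each median. The ribosomal protein genes lie between -0.71 and 0.49 around a median of -0.29, which is 0.064 with median centring, and the ribosome biogenesis factors around 0.86.

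Among markers of the cell types that such cultures can hold, some lists moved far more than the ribosomal protein genes and others did not. Of 7 endoderm genes 7 were called lower (median -4.06, from Cubn at -5.54 to Sox17 at -2.53), and of 8 heart muscle genes 8 were called lower (median -1.15, from Myh7 at -2.63 to Actc1 at -0.95). Of 8 pluripotency genes 6 were called higher and 1 lower (median 1.17, from Zfp42 at -1.19 to Pou5f1 at 2.50), and of 3 tested neural genes 2 were called higher. Of 5 fibroblast or feeder genes 3 were called lower and 1 higher (median -0.82). Of 4 endothelial genes 2 were called higher and 1 lower (median 0.34), and of 3 tested genes of primitive blood 1 higher (median 0.31). The last 2 medians were of a size with the members' median of -0.29. In both groups every tested marker was well above background on all 3 arrays, except Klf1 of the primitive blood list, which was so on 2 arrays in the null RNA. The part of these cell types in the ribosomal protein ratios was not tested.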

How the data were processed

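Per the file headers, the scanner files hold spot and local background medians as intensity per channel, extracted by the authors with Agilent Feature Extraction (11.5.1.1 in the headers, 8.5.1.1 in the submitters' processing notes), 0 or 1 marks scored per spot for saturation, outliers and signal well above background, and a deposited log10 ratio of Cy5 over Cy3. The authors' deposited processed values are log2 ratios whose normalization and centring are not given in the sources used here. Local backgrounds marked as outliers were set to their channel's median before limma 3.58.1 (R 4.3.3) ran normexp (offset 50) and loess within each array. Array 3 was then turned. Probes were named through RefSeq accessions in GRCm38.p6 (28025 of 39429). A probe was tested if well above background in at least 1 channel of each array, and each gene's brightest such probe was used. The mean log2 ratio of 3 arrays was tested against 0 with lmFit and eBayes (8.66 degrees of freedom), and p-values were adjusted over 14710 genes. The script was tested on simulated data. Only 3 arrays limit the precision. The members, the other lists and the marker lists were chosen with earlier results of these data known. Members were named as the 8 highest and 8 lowest that passed with one sign, those with probes called in opposite directions, those saturated on any array (beyond 10 by count), and Rplp0, Rplp1, Rplp2, Rpsa, Rpl5, Rpl11, Rps6, Rpl38, Rpl10, Rps25, Rpl22 and Rps19, and from each other list the 3 highest and 3 lowest that passed, with all tested paralogs; other members are named beside a result on the limit or on their role. The alternatives changed background, normalization, filter, probe choice, saturated spots, the direction of replicate 3 and the replicates. Probes never at the limit, slide and dye orientation as fixed terms were added after the data were seen. Promoter sequences are RefSeq's (GRCm38.p6). A few of the genes counted are not reported here by name.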

Additional observations from a re-analysis of the deposited data

How the results depend on the processing

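As reported, 26 members were called lower and 1 higher, and all tested genes gave 4850 and 4636. With marked local backgrounds kept, 8 members were lower, and all genes gave 2260 lower and 2665 higher. Feature Extraction's log ratio gave 11 members lower and 3 higher, the authors' values 14 and 2, no filter 3 higher, and the mean over probes 9 higher. Median centring gave 0 members lower (all genes 2023 lower and 3039 higher, 60.0% higher against 48.9%), with medians of 0.064 for all members, 0.12 for the large and 0.024 for the small subunit. With replicate 3 as labelled limma called 0 members and 0 genes either way (0 members higher and 8 lower, and 13 genes higher and 27 lower, at an unadjusted p below 0.05), and the large subunit's median was -0.023. Leaving out a replicate gave from 6 to 44 members lower and from 1 to 2 higher, and the highest count came without replicate 3. Of the settings added after the data were seen, the brightest probe never at the limit gave 3 higher, its combination with median centring 0 lower and 3 higher (all genes 2029 and 3055; medians 0.16, 0.20 and 0.067), and dye orientation as a fixed term 41 lower and 6 higher. No other setting moved these counts by over 1.5 times, and the medians stayed below 0 outside median centring. The members' median was nearer 0 by over 1.5 times without replicate 2 (-0.19), with the authors' values (-0.19), with replicate 3 as labelled (-0.16) and with probes never at the limit (-0.18).

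Values of the named genes that turned sign were, with median centring, those of Rpl17 (0.055), Rpl22 (0.048) and Eef1a1 (0.040), which kept these values in the combined setting. With the mean over probes it was that of Polr1d (0.098). With replicate 3 as labelled they were Rpl17 (0.026), Rpl7l1 (-0.023), Eif4a2 (0.0044) and Rps4l (-0.042). With probes never at the limit they were Rpl27a (0.14) and Rpl11 (-1.05), and in the combined setting 0.45 and -0.72. Apart from the choice of probe or sign itself, the cause was not tested.

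No paired analysis was possible because each array holds both RNAs and is its own pair, which leaves 1 group of 3 ratios. Slide as a random block was not run, since limma returned no correlation from 3 arrays. Signals at the scanner limit bound 41 of the 75 members, so differences there are not detectable beyond the limit, and with 3 arrays a p that misses the threshold does not show that levels were equal.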
